A study of Mus musculus with 13 samples.

Results

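The genes described here encode chemokines and their receptors in the hemisphere of 11-day-old mice. They were chosen by symbol, as every protein-coding gene of the count table named Ccl, Cxcl, Cx3cl1, Ccr, Cxcr or Ackr with its number and, for Ccl, up to 1 further letter. This gave 63 of the 48795 genes in the table, 21772 of which are protein-coding. The 63 genes comprised 43 ligands, 16 receptors and 4 atypical receptors, with 56 on assembled chromosomes of GRCm38 and 7 on unplaced scaffolds. The scaffold genes carry the names Ccl19, Ccl21a, Ccl21b, Ccl21c and Ccl27, so the 63 genes have 58 symbols between them. Cxcl11 has a name of this kind but is annotated as a polymorphic pseudogene, had between 1 and 5 counts in a mouse and was left out. Cx3cr1, the receptor for Cx3cl1, was also left out and is given with other genes of the pathway.

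Chemokines are small secreted or membrane-bound proteins that direct the movement of cells along their gradients, and they are grouped by the spacing of their N-terminal cysteines into CC, CXC and CX3C families. They act on G protein-coupled receptors, while atypical receptors bind chemokines without G protein signalling and take them up or present them. In the brain, Cx3cl1 of neurons and Cxcl12 of meninges and vessels are part of normal development, whereas most inflammatory CC and CXC chemokines are scarce until microglia, astrocytes or infiltrating cells are activated.

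RNA was sequenced from the right brain hemisphere, without olfactory bulb and cerebellum, at postnatal day 11. The nlsYAP5SA group held 5 mice of the genotype NexCre +/- YAP5SAnls +/-, in which Cre of the NEX/NeuroD6 neuronal lineage switches on a nuclear, phosphorylation-deficient YAP1. The control group held 5 littermates of the genotype NexCre -/- YAP5SAnls +/-, which carry the silent transgene without Cre. A further 3 wild-type mice (WT), not littermates of the others, formed the C57BL/6 group, and all 13 mice have the strain background C57BL/6J. The littermates came from different matings that the labels do not assign to mice, and the hemispheres were taken whole, so cells with and without recombination were measured together. The question was which chemokine and receptor genes differ in level when active YAP1 is present in this lineage.

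Library totals were between 20871566 and 25524349 estimated counts and overlapped between the groups, and no pair of replicates agreed within sampling noise (6.39 or more for chi-square over its degrees of freedom). Each library comes from a mouse of its own, and the p-values measure the spread between these mice. Yap1 itself was between 19.9 and 22.3 CPM (counts relative to the library total, scaled with its TMM factor) in controls and between 22.6 and 26.6 CPM in nlsYAP5SA mice, without overlap. Its log2 fold change was 0.23 (standard error, SE, 0.06, edgeR quasi-likelihood test with Benjamini-Hochberg adjustment over all genes, adjusted p = 0.0361). How far reads of the transgene were counted as Yap1 is not given in the sources used here. The labels do not give the sex of the mice: Ddx3y, Eif2s3y, Kdm5d and Uty of the Y chromosome summed to between 90.9 and 129 CPM in all 5 controls, but were above 5 CPM in only 2 of 5 nlsYAP5SA mice (replicates 3 and 4) and 2 of 3 C57BL/6 mice (replicates 1 and 3). Sex and genotype were therefore partly confounded. The Y-linked covariate used below is the sum of the log2 levels of these genes, with 0.5 added to each CPM. With this covariate the log2 fold change of Yap1 was 0.19 and was not called (adjusted p = 0.355 from edgeR).

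Most of these genes were too low to test. Between nlsYAP5SA and control mice 21 of the 63 had enough counts to be tested, and 38 could be tested in none of the comparisons. A count of 0 in all 13 mice was found for 7 genes, namely Ccr4, Ccl26, Ccl21c, Ccl21b on chromosome 4 and a scaffold copy each of Ccl19, Ccl21b and Ccl27, and a count of 0 in a library allows up to 3 counts. Another 22 genes reached between 1 and 9 counts in their highest mouse. Among the ligands these were Ccl8 and Ccl4 with at most 7 counts, Ccl11 and Ccl21a with 6, Cxcl1 with 5, Ccl5 and a scaffold copy of Ccl21a with 4, Cxcl3 and Cxcl17 with 3, Ccl1 with 2, and Ccl20, Cxcl2 and Cxcl15 with 1. Among the receptors they were Ccr10 with at most 8 counts, Cxcr2 with 5, Ccr7 with 4, Ccr3, Cxcr3 and Cxcr6 with 3, Ccr6 with 2, and Ccr8 and Cxcr1 with 1. The remaining 13 untested genes reached 10 counts or more in at least 1 mouse: Ccl27b (43), Ccl2 (40), a scaffold copy of Ccl21b and Cxcl5 (26 each), Ccl3 (21), Cxcl9 (18), Cxcl13 (17), Ccl7 and Ccl22 (16 each), Ccr9 (12), Ackr4 and Ccl19 (11 each) and Ccl24 (10). RSEM divides reads between near-identical copies, and the scaffold copy of Ccl21b had exactly 26 counts in control replicates 1 and 3 and C57BL/6 replicate 3 and 0 in every other mouse, so the Ccl19, Ccl21 and Ccl27 copies are uncertain.

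The 21 genes with enough counts differed widely in level per length in controls. Cx3cl1, the membrane-bound ligand of neurons, was the highest in controls with 127 ± 10.5 CPM per kb of exon (SD, n = 5), followed by Cxcl14 with 42.1 ± 2.89, the atypical receptor Ackr1 with 19.0 ± 2.63, Ccl27a with 17.8 ± 2.08 and Cxcl12 with 7.33 ± 0.681 CPM per kb. The ranges of Ackr1 and Ccl27a overlapped in controls, while those of the other neighbours among these 5 did not. Cxcr4, the signalling receptor for Cxcl12, and Ackr3, its atypical receptor, followed at 2.71 ± 0.399 and 2.63 ± 0.151 CPM per kb, and their ranges overlapped. All genes named as higher in nlsYAP5SA mice below, other than Ackr3, had a control mean of at most 0.614 CPM per kb, the value of Ccl12.

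**Figure D1:**
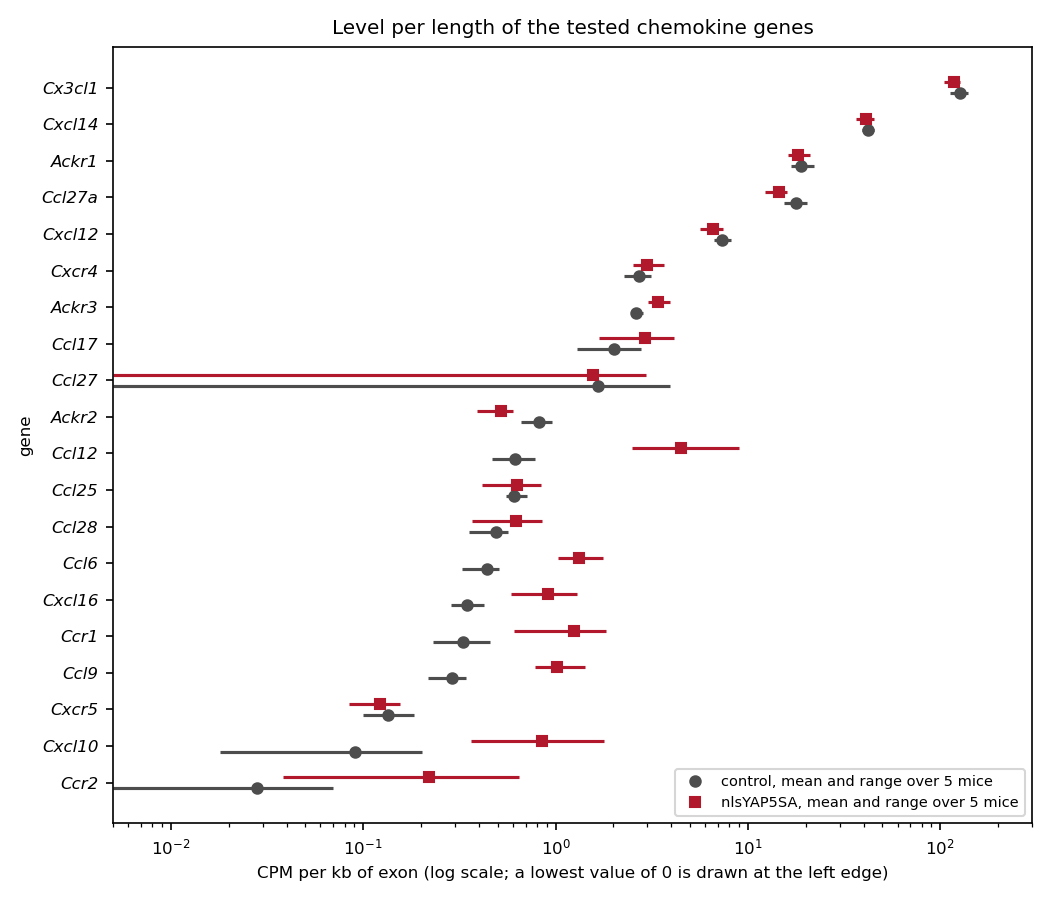
Level of 20 tested chemokine and receptor genes in CPM per kb of exon on a log axis, with the mean (symbol) and the range (line) over 5 control (circles) and 5 nlsYAP5SA mice (squares); a lowest value of 0 runs to the left edge. Cx3cl1 is at 127 CPM per kb in controls and Ccr2 is lowest, and Ccl12, Ccl6, Ccl9, Cxcl10, Cxcl16 and Ccr1 are displaced to the right in nlsYAP5SA mice without overlap.

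In nlsYAP5SA mice the ligands Ccl12, Ccl9, Ccl6, Cxcl10 and Cxcl16, the receptors Ccr1 and Ccr2 and the atypical receptor Ackr3 were higher than in controls, between 1.29-fold (Ackr3) and 9.29-fold (Cxcl10). The scavenging receptor Ackr2 was lower. Of the 21 genes kept, 9 were called higher and 1 lower at an adjusted p of 0.05 or less, and 11 were not called, against 7.36% higher, 3.44% lower and 10.8% in either direction over all 16315 genes tested. By role, 5 of 13 ligands, 3 of 5 receptors and 1 of 3 atypical receptors that were kept were called higher. The median log2 fold change was 0.35 over the kept genes and -0.01 over all genes tested. Ccl12, Cxcl10 and Ccr2 passed the filter mainly through nlsYAP5SA mice, since only 1 control mouse reached the filter's minimum for each. This minimum was 0.434 CPM of the library total, without the TMM factor. When 10 counts were required of every mouse 16 genes remained, with 6 called higher and 1 lower. Over all 15094 genes kept in that fit, 1086 were called higher and 518 lower. Every nlsYAP5SA mouse stood above every control for 8 of the kept genes, as it did for 6.5% of all genes tested. In bulk samples of this kind, more or fewer cells of a type and more or less RNA per cell cannot be told apart.

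**Figure D2:**
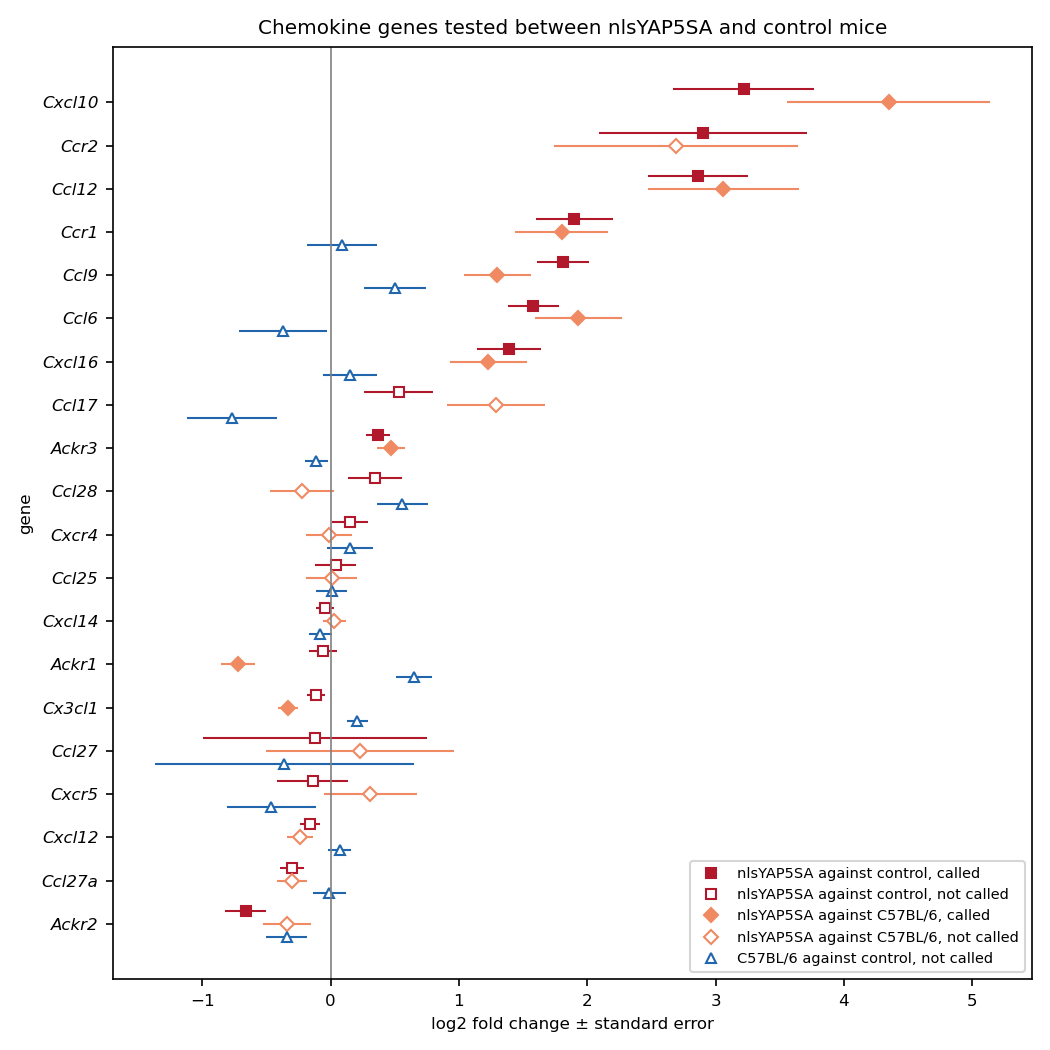
Log2 fold change with its standard error of 20 chemokine and receptor genes tested between nlsYAP5SA and control mice (red squares), with the same genes in nlsYAP5SA against C57BL/6 mice (orange diamonds) and C57BL/6 against control mice (blue triangles) where tested; filled symbols were called. Among the red squares Cxcl10 is highest at 3.22 and Ackr2 lowest at -0.66, and no triangle is filled.

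Ccl9 and Ccl6 are neighbouring CC chemokine genes on chromosome 11 that act on Ccr1 and attract myeloid cells. Their start sites and that of Cxcl10 are shown as the bases just before the start because these ligands rose, and that of Ackr2 because it fell. The bases are from RefSeq on GRCm38.p6, read 5′ to 3′ on the strand of the gene, with matches to the kappa B consensus or to the interferon-stimulated response element in capitals.
Ccl9, chr11:83578637-83578886, minus strand: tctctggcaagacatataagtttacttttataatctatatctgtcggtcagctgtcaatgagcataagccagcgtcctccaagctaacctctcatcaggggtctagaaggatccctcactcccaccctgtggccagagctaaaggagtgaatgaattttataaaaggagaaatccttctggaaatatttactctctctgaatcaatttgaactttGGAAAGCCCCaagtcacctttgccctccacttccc
Ccl6, chr11:83593088-83593337, minus strand: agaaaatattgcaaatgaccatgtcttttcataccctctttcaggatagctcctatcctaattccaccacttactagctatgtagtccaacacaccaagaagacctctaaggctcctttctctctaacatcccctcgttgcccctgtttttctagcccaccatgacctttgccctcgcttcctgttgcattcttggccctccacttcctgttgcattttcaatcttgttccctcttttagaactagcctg
Cxcl10, chr5:92348890-92349139, minus strand: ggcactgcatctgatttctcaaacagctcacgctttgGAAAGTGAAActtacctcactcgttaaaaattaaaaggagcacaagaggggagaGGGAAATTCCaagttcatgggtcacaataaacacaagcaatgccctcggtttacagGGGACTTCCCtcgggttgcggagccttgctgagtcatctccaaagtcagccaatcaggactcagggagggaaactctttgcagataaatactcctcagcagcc
Ackr2, chr9:121898105-121898354, plus strand: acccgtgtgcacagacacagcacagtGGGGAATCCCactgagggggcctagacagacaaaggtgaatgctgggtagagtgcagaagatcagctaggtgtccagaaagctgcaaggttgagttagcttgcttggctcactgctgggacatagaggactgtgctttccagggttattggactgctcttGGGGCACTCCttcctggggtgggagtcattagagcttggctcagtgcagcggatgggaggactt

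In this stretch Ccl9 had 1 match to the kappa B consensus, 35 bases before its start, and Ccl6 had no match to a motif searched. Cxcl10 had the letters of the interferon-stimulated response element from 213 bases before the start and 2 kappa B matches from 159 and 103 bases before it. Ackr2, which was lower in nlsYAP5SA mice, also had 2 kappa B matches. Both strands were searched in windows of 250 bases before to 50 after the start, which RefSeq tables gave for 42 of the 58 symbols. The kappa B consensus was found in 4.51% of all 32851 windows, the response element in 3.44%, the TEAD core GGAATG in 14.7% and the GAS letters TTCNNNGAA in 8.3%. Of the 9 genes called higher, 7 had a window, and kappa B letters were in 2 of them (Ccl9 and Cxcl10), the response element in 1 (Cxcl10), and the TEAD core and GAS letters in 0. These matches are a description of letters.

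Ccl9 (chromosome 11 from 83572919 to 83578636) was at 0.817, 0.900, 0.958, 1.05 and 0.661 CPM in the 5 controls and at 2.80, 4.33, 2.38, 2.61 and 3.42 CPM in the 5 nlsYAP5SA mice. The lowest nlsYAP5SA mouse was above the highest control by more than the whole range of the controls. The log2 fold change was 1.81 (SE 0.20, edgeR, adjusted p = 9.7e-05), or 3.51-fold.

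Ccl6 (chromosome 11 from 83587882 to 83593087) was at 0.817, 0.861, 0.916, 0.587 and 0.755 CPM in controls and at 1.85, 3.15, 1.99, 2.65 and 2.20 CPM in nlsYAP5SA mice, again without overlap. Its log2 fold change was 1.58 (SE 0.20, edgeR, adjusted p = 0.000258). Ccl5, Ccl3 and Ccl4, inflammatory CC chemokines within the same stretch of 138.9 kb, were too low to test.

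Ccl12 (chromosome 11 from 82101845 to 82103400), a ligand of Ccr2 that attracts monocytes, was between 0.25 and 0.420 CPM in every control. In nlsYAP5SA mice it was at 1.63, 1.74, 1.34, 4.82 and 2.57 CPM. Replicate 4 was the highest, and the lowest, replicate 3, was still above all controls. The log2 fold change was 2.86 (SE 0.39, edgeR, adjusted p = 0.000437), or 7.28-fold.

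Cxcl10 (chromosome 5 from 92346638 to 92348889), an interferon-inducible ligand of Cxcr3 that attracts T cells and natural killer cells, was at 0.0409, 0.0782, 0.458, 0.210 and 0.236 CPM in controls. It was at 1.17, 1.41, 0.823, 4.0 and 2.20 CPM in nlsYAP5SA mice, all of them above the highest control. The log2 fold change of 3.22 (SE 0.55, edgeR, adjusted p = 0.00229) rests on low control counts. Its exons overlap those of Art3 on the opposite strand over 5.9% of their length, and Art3 was at 3.24 ± 0.448 CPM in controls and 2.67 ± 0.214 CPM in nlsYAP5SA mice (SD, n = 5 each).

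Cxcl16 (chromosome 11 from 70453983 to 70459984), a membrane-bound ligand of Cxcr6 and a scavenger receptor for oxidised lipids, was at 0.940, 0.861, 1.29, 0.923 and 1.23 CPM in controls. In nlsYAP5SA mice it was at 1.85, 2.68, 1.78, 3.56 and 3.93 CPM, without overlap, with a log2 fold change of 1.39 (SE 0.25, edgeR, adjusted p = 0.00317). Exons of Zmynd15 on the opposite strand overlap 18.3% of its exon bases, but Zmynd15 as a whole was at or below 0.562 CPM in every mouse of both groups.

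The other 8 ligands that could be tested were not called. Ccl27a, a ligand of Ccr10, came nearest, with a log2 fold change of -0.30 (SE 0.09, edgeR, adjusted p = 0.0563); it was between 36.5 and 48.5 CPM in controls and between 29.2 and 37.9 CPM in nlsYAP5SA mice. It passed the threshold with DESeq2's size factors (adjusted p = 0.0470 in edgeR) and with DESeq2's Wald test (0.0183). Cx3cl1 was at 499 ± 41.3 CPM in controls and 464 ± 32.7 CPM in nlsYAP5SA mice (log2 fold change -0.11, adjusted p = 0.359 from the edgeR test), and Cxcl12 at 59.9 ± 5.57 and 53.8 ± 6.25 CPM (-0.16, adjusted p = 0.285). For Cxcl14, Ccl25, Ccl28, Ccl17 and the scaffold gene Ccl27 the log2 fold changes were -0.04, 0.04, 0.35, 0.53 and -0.12, and adjusted p-values were at least 0.255.

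Ccr1, an inflammatory receptor of myeloid cells, was at 0.654, 0.861, 1.17, 1.3 and 0.708 CPM in controls and at 2.62, 4.66, 1.73, 3.52 and 5.15 CPM in nlsYAP5SA mice. The groups did not overlap, and the log2 fold change was 1.90 (SE 0.30, edgeR, adjusted p = 0.00137). Per length it was at 1.25 ± 0.498 CPM per kb in nlsYAP5SA mice, against 0.22 ± 0.246 CPM per kb for Ccr2, and the lowest values of Ccr1 overlapped the highest of Ccr2.

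Ccr2, the receptor that brings monocytes out of the bone marrow, was the least firm of the calls. It was at 0.0817, 0.469, 0, 0.210 and 0.189 CPM in controls and at 0.497, 4.38, 0.260, 1.13 and 1.17 CPM in nlsYAP5SA mice, so replicate 3 lay within the range of the controls and replicate 2 lay far above its group. The log2 fold change was 2.90 (SE 0.81, edgeR, adjusted p = 0.0376). Without nlsYAP5SA replicate 2 it was 1.96 (adjusted p = 0.0958), and the call was also lost without nlsYAP5SA replicate 5 or control replicates 1, 3, 4 or 5 (adjusted p between 0.0626 and 0.0794 from edgeR) and with the Ttr covariate (0.0896). Cxcr4 and Cxcr5, the remaining receptors that could be tested, had log2 fold changes of 0.15 and -0.14 (adjusted p = 0.555 and 0.819 from the edgeR test).

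Of the atypical receptors, Ackr3 rose and Ackr2 fell. Ackr3, which takes up Cxcl12 and is expressed by neurons, glia and vessels, was at 8.46, 8.80, 8.29, 8.98 and 9.58 CPM in controls and at 13.2, 12.1, 10.9, 10.8 and 10.1 CPM in nlsYAP5SA mice. The separation was small but complete, with a log2 fold change of 0.37 (SE 0.09, edgeR, adjusted p = 0.0156). Ackr2, which removes inflammatory CC chemokines, was at 2.74, 3.01, 2.33, 2.68 and 2.08 CPM in controls and at 1.22, 1.83, 1.47, 1.74 and 1.87 CPM in nlsYAP5SA mice, all of them below the lowest control. Its log2 fold change was -0.66 (SE 0.16, edgeR, adjusted p = 0.0206), and the call was lost without control replicate 2 (adjusted p = 0.0562) and with the level of Ttr, a choroid plexus gene, as a covariate (0.0532). Ackr1, which binds both CC and CXC chemokines on venous endothelium, was at 26.8 ± 3.70 CPM in controls and 25.7 ± 3.17 CPM in nlsYAP5SA mice (log2 fold change -0.06, adjusted p = 0.768). It shares 25.7% of its exon bases with Cadm3 on the same strand, a neuronal gene at 458 ± 12.2 CPM in controls, so its level is uncertain. Ackr4 reached at most 11 counts and was not tested.

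**Figure D3:**
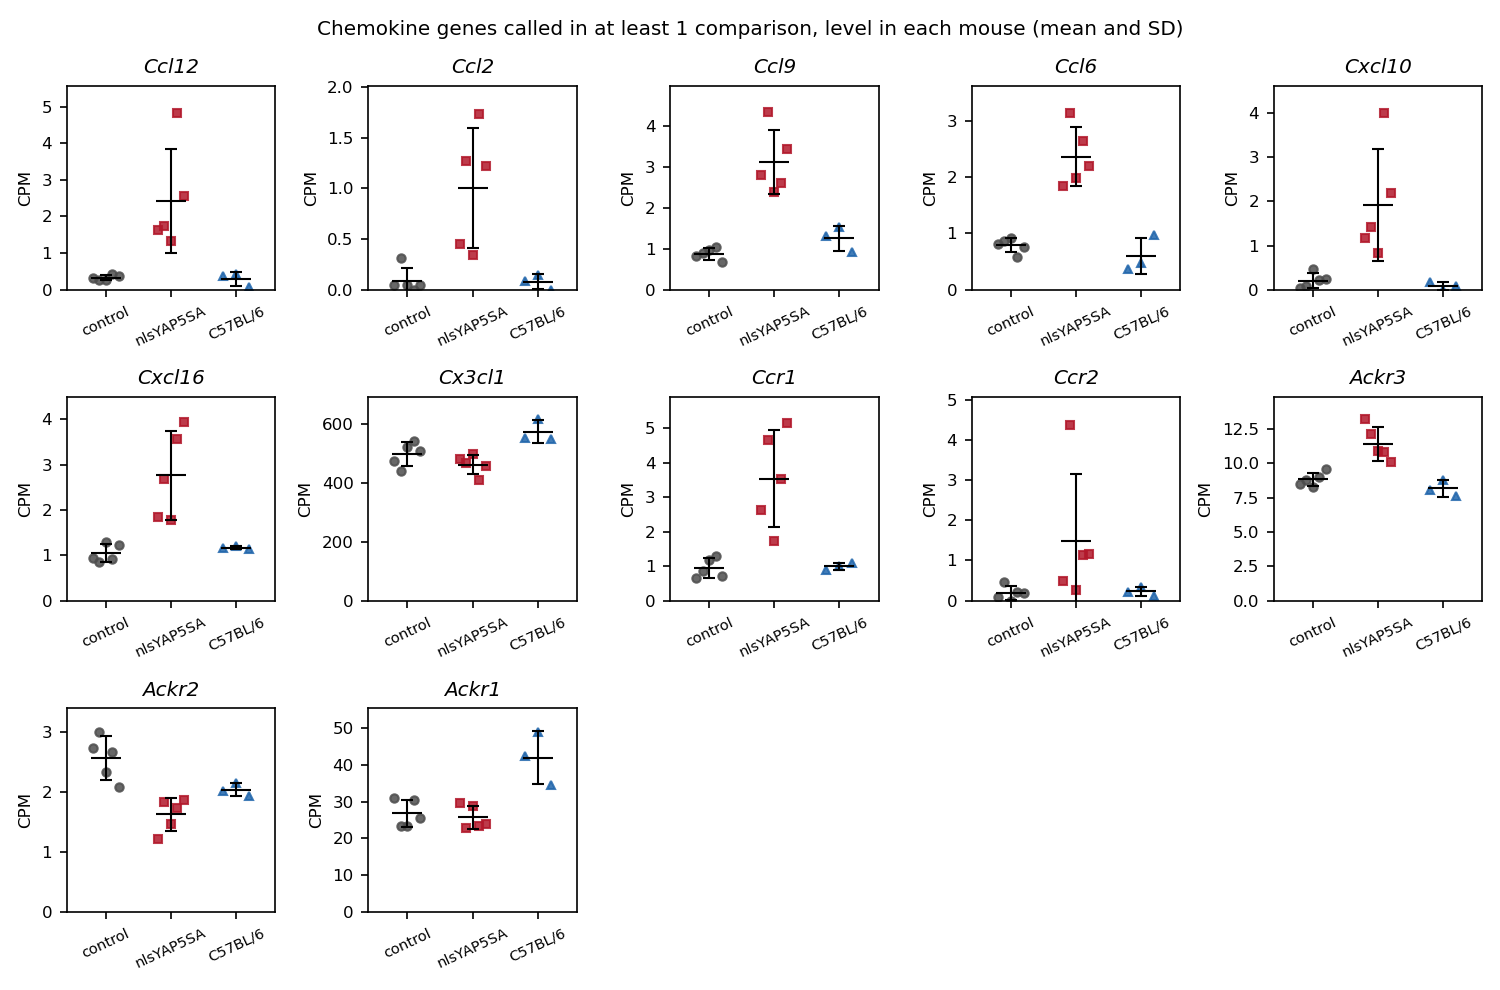
Level in CPM of 12 chemokine and receptor genes called in at least 1 of the 3 comparisons, with a point for each of 5 control, 5 nlsYAP5SA and 3 C57BL/6 mice and the mean and SD as bars, on axes that start at 0. The nlsYAP5SA mice lie above both other groups for Ccl12, Ccl2, Ccl9, Ccl6, Cxcl10, Cxcl16, Ccr1 and Ackr3 and below both for Ackr2, while the point at 4.38 CPM stands alone for Ccr2.

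The nlsYAP5SA mice varied among themselves more for some genes than for others. The SD was 10.9% of the mean for Ackr3, 22.4% for Ccl6 and 25.2% for Ccl9, but 58.7% for Ccl12, 66.1% for Cxcl10 and 111% for Ccr2. No mouse led throughout: of the 9 genes called higher, the highest mouse was replicate 2 for 3 genes, replicate 4 for 3, replicate 5 for 2 and replicate 1 for 1. Replicate 3 was the lowest for 7 of the 9.

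Calls were also examined with regard to Y-linked transcripts. With the summed log2 levels of the Y-linked genes as a covariate, Ccl12, Ccl6, Ccl9, Ccr1, Cxcl10 and Cxcl16 were still called and Ackr3, Ackr2 and Ccr2 were not. Among mice with Y-linked transcripts only, 5 controls and 2 nlsYAP5SA mice, a comparison chosen after the data were seen, the 10 genes kept their direction. Ccl12 (log2 fold change 3.20, adjusted p = 0.0065), Ccl9 (1.49, 0.0107), Ccl6 (1.55, 0.0135) and Cxcl10 (3.53, 0.0341) were called by edgeR. Cxcl16 (1.34, 0.0613), Ccr1 (1.47, 0.0744), Ackr2 (-0.68, 0.22), Ackr3 (0.29, 0.275) and Ccr2 (1.82, 0.479) were not. This comparison also had fewer nlsYAP5SA mice, so the loss of a call cannot be assigned to sex, and mice without Y-linked transcripts included no control.

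Genes below the filter had fold changes in both directions, and few were called. A fit without the filter, in which 3.9% of 29580 genes were called higher, added Ccl2, Cxcl9 and Cxcl5. Ccl2, the main ligand of Ccr2, had 1, 8, 1, 0 and 1 counts in controls and 10, 27, 8, 40 and 26 counts in nlsYAP5SA mice (log2 fold change 3.37, SE 0.63, adjusted p = 0.00251 from edgeR). Replicate 3 of the nlsYAP5SA mice and replicate 2 of the controls had the same count of 8, but at 0.346 and 0.313 CPM the levels of the groups did not overlap. Cxcl9, an interferon-inducible ligand of Cxcr3 like its neighbour Cxcl10, had 0 counts in every control and 0, 3, 1, 18 and 14 counts in nlsYAP5SA mice. Over the group it was at least 12.9-fold higher, taking 3 counts over the 5 controls as the floor (adjusted p = 0.0293 from edgeR), and replicates 4 and 5 held most of its 36 counts. Cxcl5, a ligand of Cxcr2 that attracts neutrophils, had between 2 and 10 counts in controls and between 7 and 26 in nlsYAP5SA mice (log2 fold change 1.74, adjusted p = 0.0357), with overlap. Ccl7 (adjusted p = 0.0757), Ccl4 (0.116), Ccl5 (0.160) and Ccl3 (0.180) had positive log2 fold changes and were not called. Negative ones that were not called included Ccl24 (-1.10, adjusted p = 0.203 from edgeR), with 4 to 9 counts in controls and 2 to 4 in nlsYAP5SA mice, Ccl19 (-1.18, 0.314) with 7 to 11 and 0 to 10 counts, and Ccl11 (-1.60, 0.393) with 1 to 6 and 0 to 1. The scaffold copy of Ccl21b, seen in 2 controls alone among these 10 mice, was not called either (adjusted p = 0.0768). Levels in CPM did not overlap for Ccl24 (at least 0.189 in controls, at most 0.187 in nlsYAP5SA mice). Nor did they for Ccl5, in the other direction (at most 0.042 in controls, at least 0.0433 in nlsYAP5SA mice).

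Ligands and receptors that bind each other did not always change together. Ccl9 and Ccl6 rose with Ccr1. Ccl12 and, without the filter, Ccl2 rose with Ccr2, whose call was kept under 10 of the 20 alternatives that tested it. Cxcl10 and Cxcl16 rose while their receptors Cxcr3 and Cxcr6 stayed at no more than 3 counts in any mouse. Cxcl12 and Cxcr4 were not called, whereas Ackr3, which binds the same ligand, was.

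Marker lists of the cell types a hemisphere could hold are given beside these results. Of 10 microglia markers, all tested, 5 were called higher in nlsYAP5SA mice, among them Csf1r (log2 fold change 0.76) and Tmem119 (0.36), while P2ry12 was not (0.07, adjusted p = 0.749 from edgeR). The share over all genes was 7.36% higher and 3.44% lower, and a single call in a list of 5 or 6 markers is not read as a result about that list. None of the 10 was at 0, and their summed level was between 320 and 401 CPM in controls, 419 and 536 CPM in nlsYAP5SA mice and 333 and 390 CPM in C57BL/6 mice. It was lowest among nlsYAP5SA mice in replicate 3, as were 7 of the called chemokine genes. The 4 monocyte markers were too low to test and summed to between 0.142 and 0.378 CPM in controls and 0.606 and 2.56 CPM in nlsYAP5SA mice, and of the 6 border macrophage markers 2 were called higher. Summed, these were between 18.2 and 29.3 CPM in controls and between 26.5 and 41.1 CPM in nlsYAP5SA mice, with overlap. All 8 neutrophil markers stayed under 10 counts, with Ly6g and Elane at 0, as did all 4 markers of natural killer cells, with Ncr1 at 0, and 7 of 9 T cell markers. Of 7 astrocyte markers 3 were called higher, and of 8 endothelial markers 2 were called lower. Of 5 excitatory neuron markers 1 was called lower, of 5 fibroblast markers 1 was called higher and 1 lower, and 1 of 6 choroid plexus and 1 of 5 ependymal markers were called higher. No marker of B cells, dendritic cells, interneurons or oligodendrocytes was called in either direction, among 1, 1, 4 and 4 tested. The part of these cells in the chemokine results was not tested.

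The C57BL/6 mice were also compared with controls, which carry the transgene without Cre. As they were not littermates of either other group, genotype and litter cannot be told apart in comparisons with C57BL/6 mice. Of 20 chemokine and receptor genes tested, 0 were called by edgeR, against 0.169% of 16546 genes. At an unadjusted edgeR p of 0.05 or less 3 passed, a threshold for which the share over all genes is not given. By DESeq2's Wald test 1 gene, Ackr1, was called. Ackr1 was at 42.4, 48.9 and 34.5 CPM in C57BL/6 mice, each above every control, with a log2 fold change of 0.65 (SE 0.14, edgeR, adjusted p = 0.259). The others were Cx3cl1 (log2 fold change 0.21) and Ccl28 (0.56). For all 9 genes called higher in nlsYAP5SA mice the C57BL/6 mice overlapped the controls. A gene that was not called with 3 mice is not shown to have the same level.

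Against C57BL/6 mice, which uses the same nlsYAP5SA mice again, 23 genes could be tested and 11 were called, 9 higher and 2 lower, against 6.38% of 16641 genes in either direction, 4.16% higher and 2.22% lower. Ccl12, Cxcl10, Ccl2, Ccr2, Cxcl5 and Cxcr5 passed the filter of this comparison only through nlsYAP5SA mice. For each, 0 of 3 C57BL/6 mice reached the filter's minimum of 0.448 CPM (without the TMM factor). Of these genes, Ccl12, Cxcl10 and Ccl2 were among those called. When 10 counts were required of every mouse 7 of 14 genes were called, against 949 of all 15103 genes kept in that fit. Those higher included Ccl12, Ccl2, Ccl6, Ccl9, Cxcl10, Cxcl16, Ccr1 and Ackr3, with log2 fold changes of 3.06, 3.65, 1.93, 1.3, 4.35, 1.23, 1.80 and 0.47. Ccl2 had 2, 3 and 0 counts in C57BL/6 mice (adjusted p = 0.0291 from edgeR). Ackr1 was lower (log2 fold change -0.72, SE 0.13, adjusted p = 0.0100 from edgeR). So was Cx3cl1, at 554, 620 and 552 CPM in C57BL/6 mice and between 411 and 498 CPM in nlsYAP5SA mice (-0.33, SE 0.08, adjusted p = 0.0391). For both, all 3 C57BL/6 mice also stood above all 5 controls. Ackr2 (-0.34, adjusted p = 0.351) and Ccr2 (2.69, adjusted p = 0.138) were not called here. Without C57BL/6 replicate 1 the calls were 3, without C57BL/6 replicate 2 they were 6, and without nlsYAP5SA replicate 2 or 5 they were 7. With each of the 8 mice left out in turn, the call of Ackr3 was lost in 8 cases, those of Cxcl16 and Cx3cl1 in 6, that of Ccl2 in 4, that of Ccr1 in 2, those of Ccl9, Ccl12 and Ackr1 in 1, and those of Ccl6 and Cxcl10 in 0. Cx3cl1 was also not called without the filter or with library size alone. With the Y-linked covariate 8 of the calls remained, and Cxcl16 (1.21, adjusted p = 0.0759 from edgeR), Ccl2 (3.63, 0.0503) and Ackr3 (0.43, 0.0669) were not called.

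Other genes of chemokine signalling, from a list of 63 genes that are not among those above, are given for nlsYAP5SA against control mice. Of 53 that could be tested 16 were called higher and 1 lower, where all genes tested gave shares of 7.36% and 3.44%. Their median log2 fold change was 0.20, and that of all genes was -0.01. With the Y-linked covariate 10 of the 17 were called. Signal transduction and migration held most of the 17, with 10 of 19 tested genes higher and 0 lower. These included Dock2 (log2 fold change 1.13), Vav1 (1.06), Was (1.03), Rac2 (1.0), Pik3cg (0.76) and Lyn (0.64), which act in the cytoskeletal and kinase responses of blood-derived and microglial cells, and Stat3 (0.53) and Jak2 (0.24). Among the 9 that were not called were Pik3r5 (0.32, adjusted p = 0.242 from edgeR), Jak3 (0.26, 0.228), Plcb2 (0.17, 0.704) and Pik3cd (-0.14, 0.304), which are also used by leukocytes, and Rac1, Elmo1 and Prex1, at 0.04, -0.05 and -0.03. With the Y-linked covariate Pik3cg (0.71, adjusted p = 0.128 from edgeR) and Jak2 (0.21, 0.311) were not called.

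Of 9 other chemokine-like ligands and receptors tested, 2 were called higher. Cx3cr1, the microglial receptor for Cx3cl1, was between 49.0 and 64.4 CPM in controls and between 75.3 and 100 CPM in nlsYAP5SA mice, without overlap (log2 fold change 0.68, SE 0.09, adjusted p = 0.000491 from edgeR). The other was Cmklr1 (0.68, adjusted p = 0.0243), the receptor for chemerin. Of 14 G proteins, receptor kinases, arrestins and RGS proteins, Grk3 was higher (0.19) and Rgs16, which limits chemokine receptor signalling, was lower (-0.43, adjusted p = 0.0120). Of 6 proteases that cut or shed chemokines, Mmp2 (0.39) and Mmp14 (0.28) were higher and Adam10 and Adam17, which shed Cx3cl1 and Cxcl16, were at 0.09 and 0.06 and not called. Of 5 inducing cytokines and factors that could be tested, Irf7 was called higher (2.14, SE 0.28, adjusted p = 0.000342), while Il1b, Tnf, Il6, Ifng and Ifnb1 were too low to test. With so few genes called, the counts of the G protein, protease and inducing lists are not read as results about those lists. With the Y-linked covariate Cmklr1 (0.44, adjusted p = 0.394 from edgeR), Grk3 (0.11, 0.564), Mmp2 (0.32, 0.33) and Mmp14 (0.19, 0.505) were not called, while Cx3cr1 (0.61, 0.0156), Rgs16 (-0.57, 0.0203) and Irf7 (2.0, 0.00707) were.

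**Figure D4:**
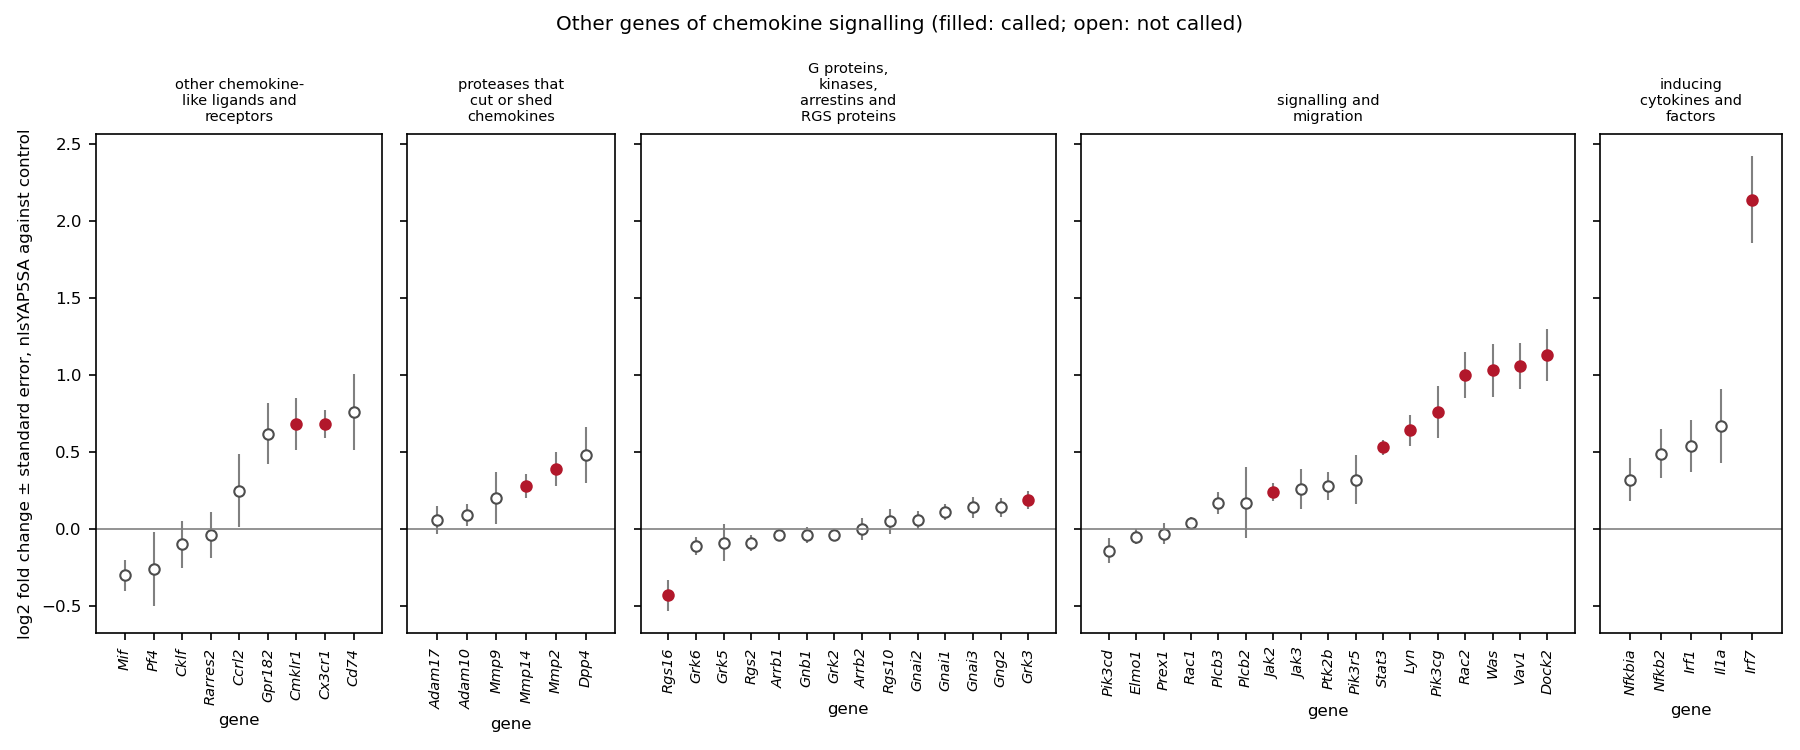
Log2 fold change with its standard error of 51 other genes of chemokine signalling in nlsYAP5SA against control mice, by list, with called genes filled and the rest open. The filled points lie above 0 other than Rgs16 at -0.43, and Irf7 is the highest at 2.14.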

How the data were processed

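The authors deposited estimated counts per gene for 13 libraries, made with cutadapt (version 1.5), STAR, SAMtools (version 1.8) and RSEM (version 1.3.0) on GRCm38 per the labels. The libraries were poly(A) RNA libraries, and the strand setting of the counting is not given in the sources used here. RSEM splits reads between near-identical copies, which affects the Ccl19, Ccl21 and Ccl27 genes. Gene names, types and exon lengths came from GENCODE M21, which covered 48435 of 48795 identifiers.

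Estimated counts were rounded, genes were filtered with filterByExpr (minimum count 10, minimum total 15) in each comparison, and edgeR's quasi-likelihood test (version 4.0.16, R 4.3.3) with TMM factors was run on all kept genes, with Benjamini-Hochberg adjustment over all of them and a threshold of 0.05. The groups compared alone entered each fit. Levels are CPM with TMM factors over the 13 libraries. Genes are compared with each other only per kb of exon. The script was tested on simulated data with known fold changes. Members called in a comparison are described by mouse, and up to 12 called pathway genes of a list are named by the size of their fold change. Alternatives were other size factors, other filters, DESeq2 (version 1.42.0), all mice in 1 fit, a replicate block, Y-linked or Ttr levels as covariates and each mouse left out; the comparison of mice with Y-linked transcripts (above 5 CPM) was chosen after seeing the data. The members, gene lists and marker lists were chosen with earlier results of these data known. Python 3.11.15 and matplotlib 3.10.9 were used for tables and figures. Counts of genes cover all genes tested, including a few whose own values are not reported here.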

Additional observations from a re-analysis of the deposited data

Results flagged for a closer look

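Of 50 groups of 5 mice examined, covering 25 chemokine and receptor genes in control and nlsYAP5SA mice, 3 held a mouse far from the others of its group by Dixon's 95% critical value, where chance alone marks about 1 in 20 groups. Ccr2 was at 4.38 CPM in nlsYAP5SA replicate 2 and between 0.260 and 1.17 CPM in the other 4 mice. Ccl2 was at 0.313 CPM in control replicate 2 and between 0.0 and 0.0472 CPM in the other controls. Cxcl5 was at 0.409 CPM in control replicate 1 and between 0.0944 and 0.168 CPM in the other controls.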

How the results depend on the processing

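For nlsYAP5SA against control mice, 10 chemokine and receptor genes were called, between 9 and 13 with any 1 mouse left out and 4 among mice with Y-linked transcripts. Over all genes the count was 1761, between 1210 and 1891 with a mouse left out, 554 with the Y-linked covariate and 334 among mice with Y-linked transcripts. For pathway genes it was 17, between 12 and 22 with a mouse left out, 10 with the Y-linked covariate and 5 among mice with Y-linked transcripts. Ccl6 and Ccl9 were called under all 21 alternatives and Cxcl10 and Ccl12 under the 20 in which they were tested. For C57BL/6 against control mice, 0 members were called, 0 with any mouse left out and 1 by DESeq2 with or without a prior. Over all genes that count was 28, between 19 and 27 with a mouse left out, 16 at 10 counts or more in every sample, 59 by DESeq2, 56 by DESeq2 with a prior and 44 with all 13 mice in 1 fit. For nlsYAP5SA against C57BL/6 mice, 11 members were called, between 3 (without C57BL/6 replicate 1) and 10 with a mouse left out, and 7 at 10 counts or more in every sample. Over all genes it was 1061, between 401 and 1757 with a mouse left out (without C57BL/6 replicates 1 and 3, respectively), and 1596 by DESeq2. No member called in the main fit or in the alternative changed direction between these fits, in any of the 3 comparisons. Members called in neither fit were not compared for direction. The cause of these shifts was not tested. Replicate numbers did not pair the mice, as deviations of same-numbered control and nlsYAP5SA mice correlated between -0.31 and 0.31. With the replicate block 8 members and 1239 genes were called for nlsYAP5SA against control (Ackr2, adjusted p = 0.0627, and Ackr3 were not), 0 members and 15 genes for C57BL/6 against control, and 0 members and 47 genes for nlsYAP5SA against C57BL/6. At this depth 42 members were too low to test against controls.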
